A study of Mus musculus with 12 samples.

Results

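The genes described here are 9 members of the type I interferon response: the transcription factor genes Irf7, Irf9 and Stat2, and the effector genes Oasl2, Ifit1, Ifit3, Ifi44, Isg15 and Bst2. They were chosen by symbol, with earlier results of these data known, and matched through the Ensembl identifiers of the gene count tables. All 9 were found among 51911 counted features. Total RNA from mouse hearts was sequenced to ask what loss of PTCD1, a mitochondrial protein with pentatricopeptide repeats, changes at the RNA level. The 12 libraries form 4 groups of 3: PTCD1 knockout (KO) without treatment, wild type (WT) without treatment, KO with CMC, and WT with CMC. CMC is a carbodiimide that tags pseudouridine in RNA, and cytoplasmic ribosomal RNA was depleted from the RNA of every group. The labels give no age, sex, strain, deleted allele or Cre driver, and do not say how many hearts stand behind a library, whether CMC and untreated libraries share hearts, or whether replicates are separate animals. P-values therefore measure the spread between these libraries, which may be technical.

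Type I interferons bind a receptor on the cell surface whose kinases phosphorylate STAT proteins. Phosphorylated STAT2 and IRF9 are parts of the factor ISGF3, which binds interferon-stimulated response elements (ISREs) in the promoters of many antiviral genes. IRF7 is itself a product of such a gene and drives further transcription of interferon genes. The effectors act at different steps: IFIT proteins bind viral RNA and limit its translation, OASL proteins belong to the family of oligoadenylate synthetases, ISG15 is conjugated to other proteins like ubiquitin, and BST2 (tetherin) holds budding virus at the cell membrane. Cytosolic nucleic acid, including mitochondrial DNA or double-stranded RNA released from mitochondria, is a known trigger of the response in many cell types.

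The promoters of the members were searched for the core of the ISRE, GAAANNGAAA on either strand with overlaps allowed, in windows from 250 bases before to 50 bases after each start (RefSeq, GRCm38.p6). All 9 members matched a window, with 2 for Irf9 and 10 in all. A match was found for 5 members: 1 in Stat2, 2 in Bst2, 3 in Isg15, 2 in Ifit1 and 2 in Ifit3. No match was found in the windows of Irf7, Irf9, Oasl2 and Ifi44. Among 32851 windows of the same length searched, 3.44% held a match. Stretches of 90 bases that hold the matches are printed because they show how the copies are arranged, on the strand of the gene, 5′ to 3′, with the matches in capitals (TTTCNNTTTC is the same motif read on the other strand). They are Stat2 at chr10:128270266-128270355 on the plus strand, Bst2 at chr8:71537523-71537612 on the minus strand, Isg15 at chr4:156200819-156200908 on the minus strand, Ifit1 at chr19:34640775-34640864 on the plus strand, and Ifit3 at chr19:34583363-34583452 on the plus strand.
Stat2: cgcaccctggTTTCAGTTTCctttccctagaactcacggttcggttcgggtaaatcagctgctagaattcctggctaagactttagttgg
Bst2: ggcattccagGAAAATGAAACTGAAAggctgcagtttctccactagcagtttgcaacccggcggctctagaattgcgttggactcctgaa
Isg15: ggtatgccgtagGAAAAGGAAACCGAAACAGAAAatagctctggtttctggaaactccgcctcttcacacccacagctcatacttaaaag
Ifit1: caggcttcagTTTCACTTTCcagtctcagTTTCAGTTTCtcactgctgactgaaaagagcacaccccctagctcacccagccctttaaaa
Ifit3: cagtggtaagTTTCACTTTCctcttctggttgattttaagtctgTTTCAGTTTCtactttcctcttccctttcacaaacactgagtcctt
In Isg15 and Bst2 the copies overlap, while in Ifit1 and Ifit3 they are separate. A match describes the letters only, and the lack of one says only that these letters are not in the window. The GAS-type motif TTCNNNGAA, the other main binding motif of STAT proteins, was found in 1 member, Bst2, against 8.30% of those windows.

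Total depth was 10389398 to 12462093 counts per library, most of them mitochondrial, and 2683284 to 3187748 counts fell in nuclear genes. Levels in CPM are per 1000000 nuclear counts, while log2 fold changes and folds are also scaled by TMM factors, so the ratio of 2 CPM means differs from the fold printed beside them. At this depth the members had between 0 and 92 counts per library, which limits the precision of every value below. The labels were checked by Ptcd1, which had 28, 17 and 19 counts in untreated KO, 78, 71 and 74 in untreated WT, 23, 21 and 20 in KO with CMC, and 79, 103 and 74 in WT with CMC. Replicate 3 of WT with CMC stood apart from the other libraries of its group, with a chi-square per degree of freedom of 1.96 and 2.28 against them, where all other replicate pairs gave 1.11 to 1.35. Markers of cardiomyocytes were abundant in all groups, under a heart label. Their summed level was 133850 to 135026 counts per 1000000 nuclear counts (CPM) in untreated KO and 204135 to 205794 in untreated WT, and 139053 to 139979 and 201460 to 210280 with CMC. In bulk RNA such as this, fewer cells of a type and less RNA per cell cannot be told apart.

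Without CMC, 5 of the 9 genes were higher in KO hearts: Irf7, Stat2, Oasl2, Ifi44 and Bst2, by 1.48-fold to 1.71-fold. Irf9, Ifit1 and Ifit3 did not pass the test, and Isg15 had too few counts to be tested. None was lower. The test was edgeR's quasi-likelihood test on nuclear gene counts, with Benjamini-Hochberg adjustment over 12195 genes and a call at an adjusted p under 0.05. In the same comparison 29.1% of all tested genes were called higher and 28.7% lower, so that calls are frequent in these hearts. The median log2 fold change of the 8 tested members was 0.60, against -0.00 over all tested genes. This is a description only, as the members were chosen with earlier results of these data known. Summed over the 9 members, levels were 137 ± 7.47 CPM in KO and 92.4 ± 3.96 in WT (SD, n = 3).

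**Figure D1:**
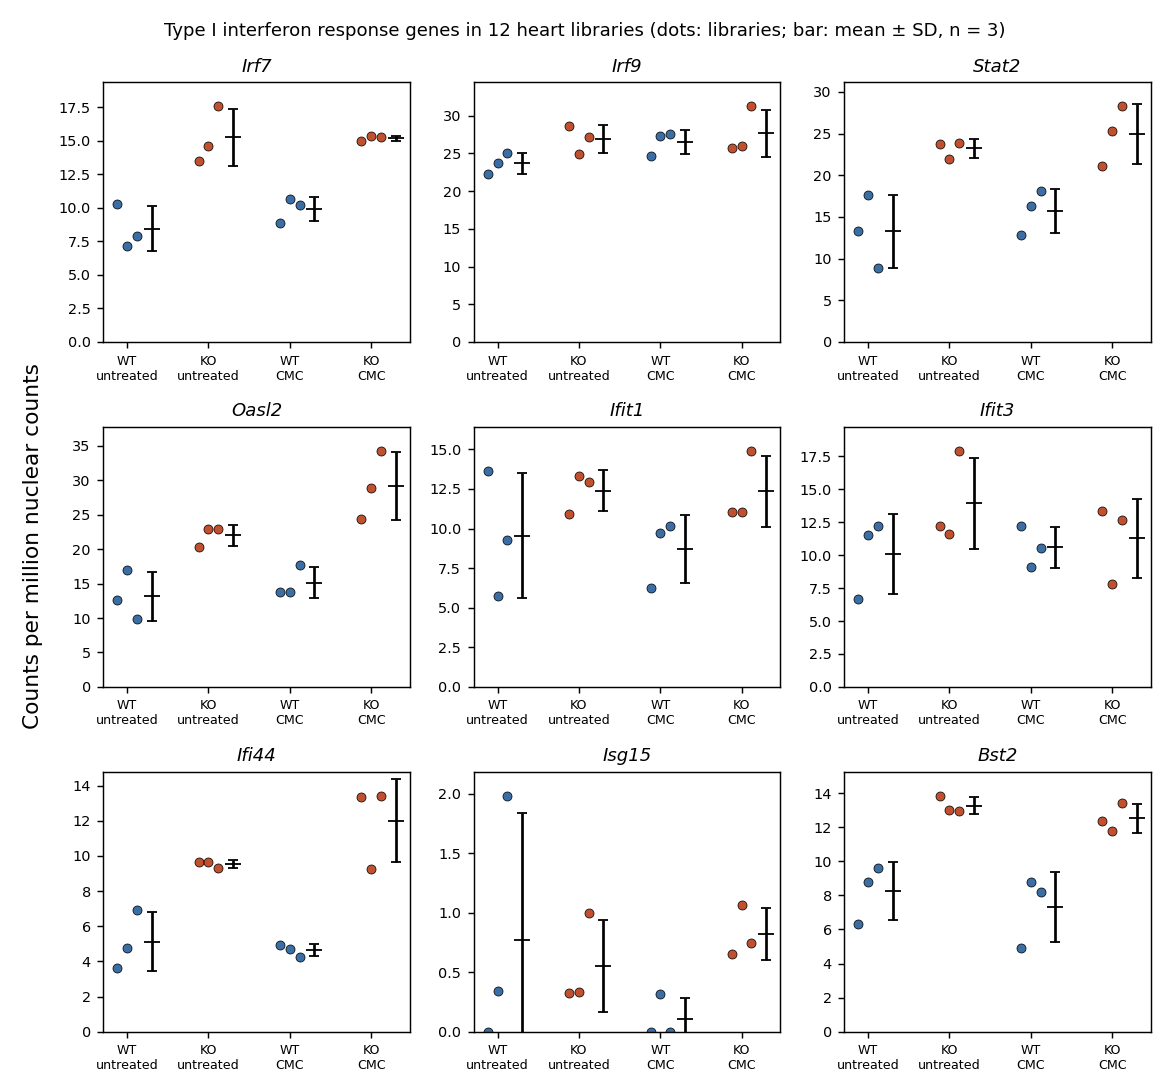
Counts per 1000000 nuclear counts (vertical axes, linear from 0) of the 9 genes in the 12 libraries, by group; each dot is a library (WT blue, KO red) and the bar beside it is the mean ± SD of 3 libraries, the lower bar of Isg15 being cut at 0. KO dots lie above WT dots of the same treatment in both pairs of groups for Irf7, Stat2, Oasl2, Ifi44 and Bst2, and overlap with them for Irf9, Ifit3 and, without CMC, Ifit1.

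Among the transcription factors, Irf7 (ENSMUSG00000025498.15, chr7:141262706-141266481, minus strand of mm10) had counts of 42, 44 and 53 in KO libraries without CMC, and of 31, 21 and 24 in WT libraries. Every KO library lay above every WT library, at 15.3 ± 2.11 against 8.45 ± 1.65 CPM. The log2 fold change was 0.73 (SE 0.21, 1.66-fold, edgeR adjusted p = 0.00133). The call was not made by DESeq2, with an adjusted p of 0.0506. Irf7 shares 45 exonic bases with Phrf1 on the other strand, and reads there cannot be assigned to either gene, as no source used here gives the strand setting of the counting.

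Stat2 (ENSMUSG00000040033.16, chr10:128270559-128292849, plus strand), which carries the transactivation domain of ISGF3, had 74, 66 and 72 counts in KO and 40, 52 and 27 in WT. The groups did not overlap, and WT libraries were more spread (13.3 ± 4.35 CPM) than KO libraries (23.2 ± 1.096 CPM). The log2 fold change was 0.69 (SE 0.17, 1.61-fold, edgeR adjusted p = 0.000173).

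Irf9 (ENSMUSG00000002325.14, chr14:55603571-55610030, plus strand), the DNA-binding subunit of ISGF3, had 89, 75 and 82 counts in KO and 67, 70 and 76 in WT. The groups overlapped, at 26.9 ± 1.86 and 23.7 ± 1.42 CPM. The log2 fold change was 0.07 (SE 0.14, edgeR adjusted p = 0.704), and the 95% interval of its fold ran from 0.868 to 1.26. Irf9 shares 123 exonic bases with Rnf31 on the same strand.

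Of the effectors, Oasl2 (ENSMUSG00000029561.17, chr5:114896936-114912234, plus strand) had 63, 69 and 69 counts in untreated KO and 38, 50 and 30 in WT. All KO libraries were above all WT libraries, at 22.05 ± 1.54 against 13.2 ± 3.55 CPM. The log2 fold change was 0.63 (SE 0.17, 1.54-fold, edgeR adjusted p = 0.000785).

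Ifi44 (ENSMUSG00000028037.13, chr3:151730922-151749960, minus strand), an interferon-induced GTP-binding protein gene, had 30, 29 and 28 counts in KO and 11, 14 and 21 in WT. KO libraries were close to each other and above WT, at 9.53 ± 0.205 against 5.11 ± 1.67 CPM. The log2 fold change was 0.77 (SE 0.26, 1.71-fold, edgeR adjusted p = 0.00754). Bst2 (ENSMUSG00000046718.8, chr8:71534255-71537456, minus strand) had 43, 39 and 39 counts in KO and 19, 26 and 29 in WT. It was also higher in every KO library, at 13.3 ± 0.505 against 8.23 ± 1.71 CPM, with a log2 fold change of 0.57 (SE 0.22, 1.48-fold, edgeR adjusted p = 0.0178). The calls of both genes rested on the low WT replicate 1: without it the edgeR adjusted p was 0.0808 for Ifi44 and 0.144 for Bst2, and by DESeq2 with all libraries it was 0.115 and 0.161.

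Ifit1 and Ifit3, neighbours on chromosome 19 with 2 ISRE matches each, did not pass the main test. Ifit1 (ENSMUSG00000034459.8, chr19:34640871-34650009, plus strand) had 34, 40 and 39 counts in KO and 41, 17 and 28 in WT, where replicate 1 was above all KO libraries. Its log2 fold change was 0.25 (SE 0.21, edgeR adjusted p = 0.318). The value depended on single WT libraries: it was 0.59 without replicate 1, with an edgeR adjusted p of 0.0384, and -0.01 without replicate 2. Ifit3 (ENSMUSG00000074896.3, chr19:34583531-34588731, plus strand) had 38, 35 and 54 counts in KO and 20, 34 and 37 in WT, with overlap and a log2 fold change of 0.34 (SE 0.21, edgeR adjusted p = 0.151). With nuclear totals in place of TMM scaling Ifit3 passed, at 0.46 (edgeR adjusted p = 0.0475). Ifit1, Ifit3 and Oasl2 have close paralogs in the count table (Ifit1bl1, Ifit1bl2, Ifit3b and Oasl1), so reads shared by copies make their counts uncertain.

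Isg15 (ENSMUSG00000035692.6, chr4:156199424-156200818, minus strand), with 3 ISRE matches the member with the most copies, was barely detected. It had 1, 1 and 3 counts in untreated KO, 0, 1 and 6 in untreated WT, 2, 3 and 2 in KO with CMC, and 0, 1 and 0 in WT with CMC. Over the groups this gave 5 against 7 counts without CMC, a KO to WT ratio of 0.704 with a 95% counting interval of 0.176 to 2.58. With CMC it was 7 against 1 counts, a ratio of 7.58 with an interval of 0.974 to 342. Both intervals include a ratio of 1 and cover counting error only, so a difference in Isg15 was not detectable at this depth.

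In the libraries with CMC the same 5 members were called higher in KO, again with none lower. Of all tested genes, 27.2% were called higher and 26.8% lower there. The median log2 fold change of the 8 tested members was 0.55, against -0.01 over 12198 tested genes. Summed over the 9 members, levels were 146 ± 15.9 CPM in KO and 98.7 ± 9.24 in WT (SD, n = 3). Without WT replicate 3, which stood apart, 5 members were again called higher, and without WT replicate 1 it was 3. KO libraries lay above WT libraries without overlap in CPM for 6 of the 8 genes, these 5 and Ifit1, where 34.1% of all tested genes did so; without CMC it was the 5 called genes, against 38.1% of all. These libraries do not serve as a second set of hearts, since the labels do not say whether they came from other animals.

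Oasl2 had 75, 81 and 92 counts in KO with CMC and 42, 44 and 54 in WT with CMC, with a log2 fold change of 0.86 (SE 0.16, 1.82-fold, edgeR adjusted p = 4.43e-05). Ifi44 had 41, 26 and 36 counts in KO and 15, 15 and 13 in WT, the largest fold of the 8 tested members in either comparison, with a log2 fold change of 1.29 (SE 0.26, 2.44-fold, edgeR adjusted p = 8.44e-05). Stat2 had 65, 71 and 76 counts against 39, 52 and 55, with a log2 fold change of 0.57 (SE 0.17, 1.49-fold, edgeR adjusted p = 0.00427). For all of them each KO library exceeded each WT library, and their calls were also made by DESeq2.

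Irf7 with CMC had 46, 43 and 41 counts in KO and 27, 34 and 31 in WT, with a log2 fold change of 0.53 (SE 0.20, 1.45-fold, edgeR adjusted p = 0.0224). Bst2 had 38, 33 and 36 counts in KO and 15, 28 and 25 in WT, with a log2 fold change of 0.69 (SE 0.23, 1.61-fold, edgeR adjusted p = 0.0139). Neither overlapped between the groups, but both calls were lost without WT replicate 1, with edgeR adjusted p of 0.077 for Irf7 and 0.102 for Bst2, and with DESeq2, at 0.149 and 0.104. Ifit1 had 34, 31 and 40 counts against 19, 31 and 31, and did not pass at a log2 fold change of 0.41 (SE 0.23, edgeR adjusted p = 0.135). Irf9 had 79, 73 and 84 counts against 75, 87 and 84, and Ifit3 had 41, 22 and 34 against 37, 29 and 32. Both overlapped widely, with log2 fold changes of -0.02 (SE 0.14, edgeR adjusted p = 0.899) for Irf9 and 0.02 (SE 0.23, edgeR adjusted p = 0.949) for Ifit3, whose signs turned with the scaling for Irf9 and with single libraries for both.

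**Figure D2:**
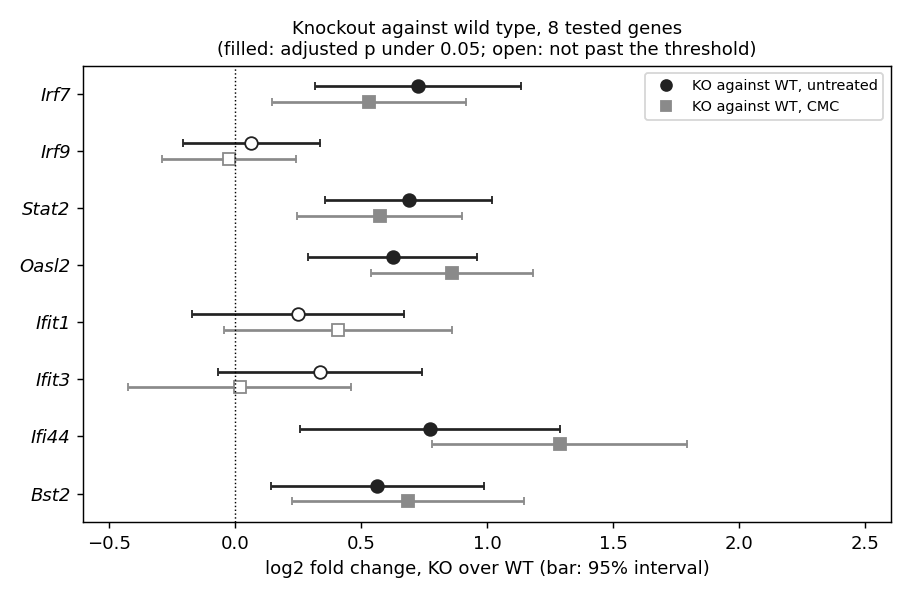
Log2 fold change of KO over WT (horizontal axis) for the 8 tested genes, without CMC (black circles) and with CMC (grey squares), with bars for the 95% interval; filled symbols passed the edgeR adjusted p of 0.05. Irf7, Stat2, Oasl2, Ifi44 and Bst2 are filled in both, between 0.53 and 1.29, and Irf9, Ifit1 and Ifit3 are open in both, with bars that include 0.

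Within a genotype, 1 member at most was called between CMC and untreated libraries. In WT, 0 of the 8 tested members were called between CMC and untreated libraries by edgeR or by DESeq2, where edgeR called 2.23% of all tested genes. At an unadjusted p under 0.05 it was 0 members and 14.7% of all tested genes. In KO, Oasl2 was the only call, with 75, 81 and 92 counts after CMC and 63, 69 and 69 before, a log2 fold change of 0.41 (SE 0.14, edgeR adjusted p = 0.0411), where 6.77% of all tested genes were called higher. That call was lost with nuclear totals (0.0527), with no count filter (0.0595), in a fit of all 12 libraries (0.0663), and without KO replicate 1 (0.168), 2 (0.0624) or 3 (0.076) of the untreated or 2 (0.0937) or 3 (0.267) of the CMC libraries. DESeq2 gave it no adjusted p. The difference of the genotype effect between CMC and untreated libraries was tested in a fit of all 12 libraries. No member passed by edgeR or DESeq2, which gave several of them no adjusted p, where edgeR called 1.49% of all tested genes. At an unadjusted p under 0.05 it was 0 members and 12.5% of all tested genes. The estimates ran from -0.31 for Ifit3 to 0.52 for Ifi44 on the log2 scale, with 0.24 for Oasl2. The 95% interval for Ifi44, -0.22 to 1.27, shows how wide these estimates are.

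Levels of different genes were set side by side only after division by the exon length of each gene, as counts per kilobase per 1000000 nuclear counts. That length counts every annotated exon base of a gene, 3776 for Irf7, 5386 for Irf9 and 903 for Bst2. For Irf7 it covers the whole span of the gene. Where it exceeds the length of the transcripts present, the printed level is too low, so the order depends on the annotation. In untreated KO hearts the order was Bst2 (14.7 ± 0.559), Ifit3 (7.99 ± 1.99), Irf9 (5.002 ± 0.345), Ifit1 (4.67 ± 0.481), Irf7 (4.04 ± 0.558), Stat2 (3.92 ± 0.185), Oasl2 (3.46 ± 0.241), Ifi44 (1.56 ± 0.0335) and Isg15 (0.728 ± 0.511). The gap to the next gene exceeded the sum of both SDs after Bst2, Ifit3, Stat2, Oasl2 and Ifi44, so that among Irf9, Ifit1, Irf7 and Stat2 no neighbours differed beyond their spread. In untreated WT hearts Bst2 (9.12 ± 1.89) and Ifit3 (5.80 ± 1.74) were again at the top and Isg15 (1.02 ± 1.40) and Ifi44 (0.834 ± 0.273) at the bottom, but no gap between neighbours exceeded their spread. With CMC, Bst2 led in KO (13.9 ± 0.929) and in WT (8.10 ± 2.30), in WT by no more than the spread.

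Members differed in how alike they were across libraries. Over the 12 libraries, the correlation of log2 CPM between pairs of the 8 tested members ran from -0.17 for Ifit1 and Ifit3 to 0.94 for Stat2 and Oasl2, with 0.82 for Ifi44 and Bst2. These are descriptions over libraries that share 4 groups, so that the genotype difference enters each of them. The 5 other genes whose pattern was most like the mean of the standardised members were Tmem251 (r = 0.967), Gm10275 (0.958), Igtp (0.957), Gnb3 (0.955) and Tnfrsf1a (0.953), out of 12778 genes compared, of which 281 had r over 0.9. Igtp, which encodes an interferon-inducible GTPase, was in the gene lists used here, and the others were not. The genotype difference enters these correlations too.

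Around the members, transcripts of the interferon genes themselves were at the limit of detection. Of 21 interferon genes of types I, II and III, 20 had 0 counts in all 12 libraries, and Ifnz had 1 count in 1 library. A count of 0 allows up to 0.941 to 1.12 CPM in a library. Of the 9 tested receptor and kinase genes, 3 were higher and 4 lower in untreated KO, with a median log2 fold change of 0.10. In that comparison 29.1% of all tested genes were called higher and 28.7% lower. The shared interferon lambda and interleukin 10 receptor gene Il10rb (-0.48, SE 0.09), the interferon gamma receptor gene Ifngr2 (-0.70, SE 0.06) and Jak2 (-0.34, SE 0.09, or -0.22 with nuclear totals in place of TMM scaling) fell, with edgeR adjusted p of 9.12e-07, 9.89e-27 and 0.000493. The type I receptor gene Ifnar2 was higher by 0.31 (SE 0.12, edgeR adjusted p = 0.0174), but not by DESeq2, at 0.153, nor without KO replicate 3 (0.139) or WT replicate 2 (0.0916). With CMC, 2 of the 9 tested receptor and kinase genes were higher and 4 lower, with a median of -0.16. The shares over all tested genes were 27.2% higher and 26.8% lower there.

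Among other STAT and IRF genes, Irf8, a factor of myeloid cells, rose by 0.997 (SE 0.24, edgeR adjusted p = 0.000123), or 0.65 without WT replicate 2, and by 0.99 (SE 0.26, edgeR adjusted p = 0.00211) with CMC. Stat3 rose by 0.43 (SE 0.06, edgeR adjusted p = 3.78e-11).

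Of 16 tested sensors and adaptors of nucleic acid, 4 were higher, 0 lower and 12 not past the threshold without CMC, with a median of 0.14. With CMC 6 were higher and 0 lower. The shares over all tested genes were 29.1% higher and 28.7% lower without CMC, and 27.2% and 26.8% with CMC. Zbp1, a sensor of left-handed double helices, had the largest change, with 10 to 23 counts in untreated KO libraries and 1 to 4 in untreated WT libraries, a log2 fold change of 2.48 (SE 0.46, edgeR adjusted p = 5.47e-07). With CMC its log2 fold change was 1.36 (SE 0.37, edgeR adjusted p = 0.00225). Samhd1, a nucleotide hydrolase, rose by 0.49 (SE 0.11, edgeR adjusted p = 3.02e-05). The kinase gene Tbk1 (0.40, SE 0.13) and Rnaseh2b (0.67, SE 0.21) were called by edgeR, at adjusted p of 0.00673 and 0.00345, but not by DESeq2, at 0.104 and 0.0756, and Tbk1 also not without WT replicate 1 (0.0889).

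Of 44 other interferon-stimulated effector genes tested, 17 were higher, 5 lower and 22 not past the threshold in untreated KO, with a median of 0.26, and with CMC the counts were again 17, 5 and 22. Over all tested genes the shares were 29.1% higher and 28.7% lower without CMC, and 27.2% and 26.8% with CMC. With nuclear totals in place of TMM scaling, which moved the median of all genes by 0.12 on the log2 scale without CMC, the split was 23 higher and 3 lower without CMC and 22 and 4 with CMC, and by DESeq2 it was 13 and 2, and 15 and 1. The guanylate-binding protein gene Gbp2 rose by 1.91 (SE 0.09, 3.76-fold, edgeR adjusted p = 1.82e-55) without CMC and by 2.10 (SE 0.12, edgeR adjusted p = 4.68e-16) with CMC. Gbp2 counts were 309 to 440 in untreated KO and 90 to 96 in untreated WT. Gbp7 rose by 1.156 (SE 0.10, edgeR adjusted p = 2.08e-23) and 1.14 (SE 0.11, edgeR adjusted p = 5.07e-10), and Ifi204, of the family of DNA-binding p200 proteins, by 1.17 (SE 0.22, edgeR adjusted p = 1.07e-06) and 1.29 (SE 0.20, edgeR adjusted p = 1.86e-06). Ifit1bl2, a paralog of Ifit1, fell by 1.23 (SE 0.27, edgeR adjusted p = 1.99e-05), with groups that overlapped in CPM. The Gbp and interferon-inducible GTPase genes respond to interferon gamma as well as to type I interferon.

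Of 12 genes of antigen processing and MHC class I, 5 were higher and 1 lower in each of the comparisons of KO with WT. For this list and those that follow, the shares over all tested genes were 29.1% higher and 28.7% lower without CMC. With CMC they were 27.2% and 26.8%. The transactivator gene Nlrc5 rose by 1.45 (SE 0.19, edgeR adjusted p = 1.62e-12) and 1.67 (SE 0.18, edgeR adjusted p = 1.75e-09), the immunoproteasome gene Psmb10 by 1.42 (SE 0.10, edgeR adjusted p = 2.59e-31) and 1.65 (SE 0.11, edgeR adjusted p = 2.94e-14), without and with CMC. The peptide transporter gene Tap1 rose by 0.98 (SE 0.17, edgeR adjusted p = 8.24e-08) without CMC; with CMC it was higher by 0.55 (SE 0.17, edgeR adjusted p = 0.0066), a call lost by DESeq2 (0.058) and without KO replicate 3 (0.0874). The proteasome activator gene Psme1 fell by 0.86 (SE 0.08, edgeR adjusted p = 3.64e-23) and 0.57 (SE 0.08, edgeR adjusted p = 7.6e-07). Of 9 tested negative regulators, 1 was higher and 2 lower without CMC, or 2 and 0 with nuclear totals. The phosphatase gene Ptpn11 rose by 0.24 (SE 0.06, edgeR adjusted p = 0.000104). Pias1 (-0.31, SE 0.11) and Ptpn6 (-0.57, SE 0.25) were called lower by edgeR, at adjusted p of 0.00938 and 0.0465, but not by DESeq2, at 0.158 and 0.284, and Ptpn6 lost the call whichever library was left out. Of 8 tested NF-kB targets, 3 were higher and 1 lower, or 3 and 0 with nuclear totals and with DESeq2. Nfkbia (0.63, SE 0.15, edgeR adjusted p = 0.00019) and Nfkb2 (0.60, SE 0.14, edgeR adjusted p = 6.03e-05) rose. Vcam1 (0.33, SE 0.12) and Tnfaip3 (-0.61, SE 0.27) were called by edgeR, at adjusted p of 0.0119 and 0.0414, but not by DESeq2, at 0.144 and 0.271, and Vcam1 lost the call without KO replicate 3 (0.216) or WT replicate 2 (0.125). Tnfaip3 lost it without KO replicate 1 (0.0735), KO replicate 2 (0.188), WT replicate 2 (0.154) or WT replicate 3 (0.076). Of 6 tested MHC class II genes, Ciita (1.09, SE 0.39) and H2-DMa (0.83, SE 0.31) were called higher without CMC, at edgeR adjusted p of 0.011 and 0.0173, and 0 with CMC. Neither was called by DESeq2, at adjusted p of 0.165 and 0.161, nor by edgeR without WT replicate 1 (0.0561 and 0.0726) or WT replicate 3 (0.085 and 0.0531). Ciita also lost the call without KO replicate 3 (log2 fold change 0.64, adjusted p = 0.242) and H2-DMa without KO replicate 2 (adjusted p = 0.0798).

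**Figure D3:**
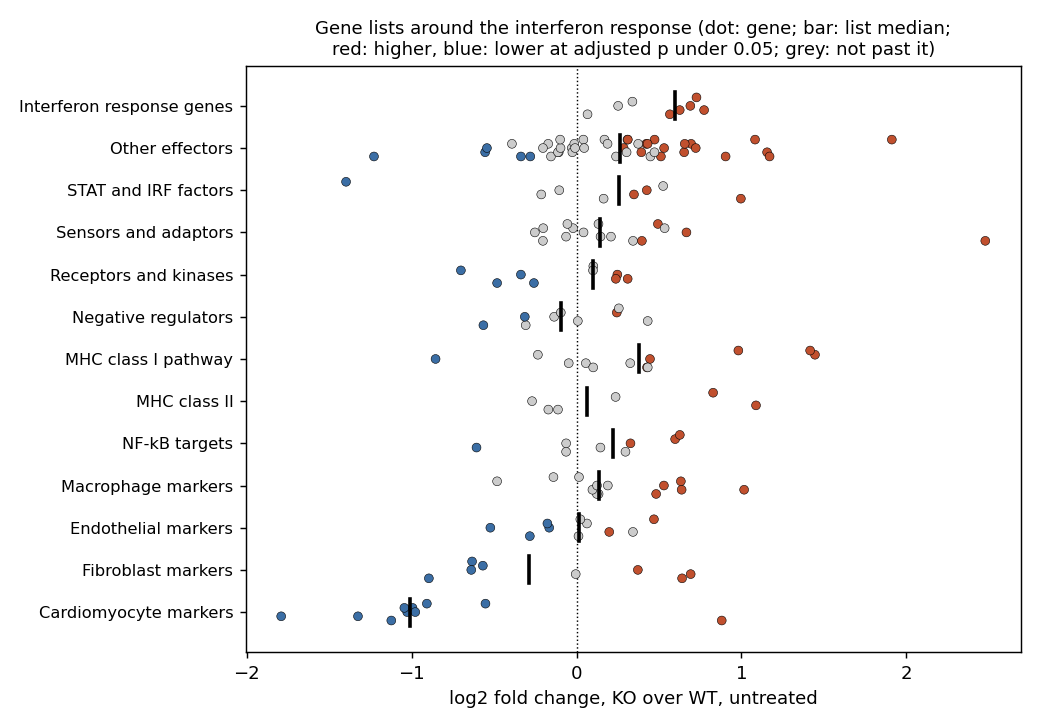
Log2 fold change of KO over WT without CMC (horizontal axis) for every tested gene of the interferon response genes, 8 related gene lists and 4 marker lists; each dot is a gene, red or blue where the edgeR adjusted p was under 0.05 and the gene higher or lower, grey otherwise, and the black bar is the list median. The median of the interferon response genes is 0.60, that of the other effectors 0.26, and that of the cardiomyocyte markers -1.01.

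The summed level of macrophage markers, a cell type that expresses many interferon-stimulated genes, was also higher in KO. Of 13 tested markers, 5 were higher and 0 lower without CMC, and 5 were higher and 1 lower with CMC, with a median of 0.13 without CMC. Over all tested genes 29.1% were higher and 28.7% lower without CMC, and 27.2% and 26.8% with CMC. Cd68 rose by 1.02 (SE 0.20, edgeR adjusted p = 3.99e-06), C1qa by 0.64 (SE 0.10, edgeR adjusted p = 6.41e-09), C1qc by 0.63 (SE 0.11, edgeR adjusted p = 5.49e-08) and C1qb by 0.53 (SE 0.11, edgeR adjusted p = 7.06e-06). The fifth was Mertk (0.48, SE 0.15, edgeR adjusted p = 0.00243), and the 1 lower with CMC was Cx3cr1 (-0.71, SE 0.25, edgeR adjusted p = 0.018), both named after their values were seen. By DESeq2, 4 markers were higher and 0 lower without CMC, with Mertk no longer called, and 4 and 0 with CMC. The Cx3cr1 call was thus lost by DESeq2. It was also lost by edgeR without KO replicate 2, WT replicate 2 or WT replicate 3 of the CMC libraries. The summed level of the 14 listed markers, none at 0 in any group, was 586 to 601 CPM in untreated KO and 449 to 469 in untreated WT, and 572 to 604 and 447 to 505 with CMC. The part of macrophage RNA in the higher levels of the members was not tested. The ratio of summed member counts to summed macrophage marker counts was 0.226 to 0.242 in untreated KO and 0.189 to 0.215 in untreated WT, without overlap; with CMC it was 0.228 to 0.272 and 0.187 to 0.239, with overlap.

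Other immune cells left few counts. The 13 markers of lymphocytes and NK cells summed to 5.32 to 8.63 CPM in untreated KO and 3.65 to 6.10 in untreated WT, the 6 of neutrophils to 3.22 to 3.99 and 1.66 to 2.37, and the 6 of plasmacytoid dendritic cells, a main source of type I interferon, to 0 to 2.25 and 0.332 to 1.69. In untreated KO, 1 of the 13, 1 of the 6 neutrophil and 3 of the 6 plasmacytoid dendritic cell markers had no count at all, and in untreated WT 4, 3 and 2. None of these genes had enough counts to be tested. Endothelial markers summed to 1375 to 1436 CPM in untreated KO and 1319 to 1383 in untreated WT, with 2 of 10 higher and 4 lower, or 5 and 2 with nuclear totals and 2 and 2 with DESeq2. Of 8 tested fibroblast markers, 3 were higher and 4 lower in untreated KO, where 29.1% of all tested genes were called higher and 28.7% lower. Of 10 cardiomyocyte markers, 9 were lower in KO and 1 higher in both comparisons, with a median of -1.01 without CMC. Lower levels of most of these markers thus went together with higher levels of the members. Whether the share of cardiomyocyte RNA differed, and its part in the levels of the members, was not tested.

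In the authors' deposited table of KO against WT, which covers the untreated libraries, 8 of the 9 members had a positive log2 fold change and 2 an adjusted p under 0.05: Stat2 (0.71, adjusted p 0.0262) and Oasl2 (0.64, adjusted p 0.0454). The authors' deposited table gave Irf7 0.75 with an adjusted p of 0.0535, Ifi44 0.80 with 0.120 and Bst2 0.58 with 0.168. The authors' deposited table listed Isg15 at -0.60 with no adjusted p.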

How the data were processed

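Total RNA sequencing was run on 12 mouse heart libraries after Ribo-Zero depletion of cytoplasmic ribosomal RNA, with TruSeq library chemistry, per the labels' protocols. The submitters' processing notes name the mm10 genome and featureCounts 1.5.1, HISAT2 2.0.5, SAMtools 1.5 and DESeq2 1.16.1, without their roles. No source used here gives the strand setting of the counting. The authors deposited raw read counts per gene. The authors' deposited table of untreated KO against WT gives a log2 fold change and p-values per gene.

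Gene symbols and exon positions were taken from GENCODE M21 annotation of mm10 (51596 of 51911 features matched by identifier without its version). The 36 mitochondrial features were left out. Each comparison of 2 groups used its 6 libraries, with filterByExpr, TMM over nuclear genes and the edgeR 4.0.16 quasi-likelihood test, with adjusted p under 0.05 called. Overlap of groups was judged on counts per 1000000 nuclear counts. There were 5 comparisons. The 9 members and all lists were chosen with earlier results of these data known. Named genes were the members, up to 4 called genes of each list with the largest changes without CMC and a mean of at least 1 count per 1000000, and the 5 most alike over the 12 libraries in log2 counts per 1000000 (prior count 2). Some genes under this rule, and the counts of the list of other STAT and IRF genes, are not reported here. Other settings tried were TMM over all genes, nuclear totals, DESeq2 1.42.0, no count filter, all 12 libraries in 1 fit, a replicate block and leaving out each library. The share of promoter windows with a motif leaves out chromosome 18. The main test was checked on simulated counts of the untreated comparison. In each run 200 of 12195 genes were changed, fewer than were called in the data. Of the changed genes, 59.5% were called at a 1.5-fold change and 86% at a 2-fold change. Among those with mean counts of 20 to 100 it was 46.8% and 93.7%, so changes near 1.5-fold can be missed at such counts. R 4.3.3 was used.

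Intervals given as 95% counting intervals, and limits from 0 counts (3 counts per library), cover counting error only. Precision for nuclear genes is limited by the 2683284 to 3187748 nuclear counts per library.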

Additional observations from a re-analysis of the deposited data

How the results depend on the processing

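The 5 members called higher in KO without CMC were 5 with TMM over all genes, no count filter, a fit of all 12 libraries and a replicate block, 6 with nuclear totals (Ifit3 added), 2 with DESeq2 (Stat2 and Oasl2), and 4 to 5 when 1 library was left out. With CMC the 5 remained 5 except with DESeq2 (3) and over the left-out libraries (3 to 5, with 3 without WT replicate 1), and were 5 without WT replicate 3. No member was called lower under any of these settings. Among all nuclear genes, 7046 were called in either direction without CMC and 6635 to 6724 with 1 library left out. With CMC these numbers were 6584 and 6076 to 6542. Nuclear totals put the median log2 fold change of all tested genes at 0.12 without CMC. Shares over all genes were not set beside the counts of the other settings, here or for the related lists. Correlations of the deviations of same-numbered libraries from their group means ran from -0.084 to 0.033 over 10301 genes. Most replicate pairs differed by little more than counting error, so this check cannot tell whether the numbers pair the samples. The replicate block left both counts of members at 5.

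Reversed signs were found for Ifit1 without CMC (-0.0098 to 0.59 over the left-out libraries, negative without WT replicate 2), and with CMC for Irf9 (0.0055 with TMM over all genes, 0.056 with nuclear totals, 0.0025 with DESeq2, 0.0035 without count filter, -0.099 to 0.036 over the left-out libraries) and Ifit3 (-0.12 to 0.22 over the left-out libraries). Among all nuclear genes, those called between CMC and untreated libraries in WT numbered 270, against 85 with DESeq2, 436 in the fit of all 12 libraries and 73 to 750 over the left-out libraries (750 without WT with CMC replicate 3). In KO they numbered 1449, against 509 with DESeq2, and the members called higher fell from 1 to 0 with nuclear totals, no count filter and the fit of all 12 libraries, were 0 with DESeq2, which gave Oasl2 no adjusted p, and were 0 to 1 over the left-out libraries. For the interaction the 190 calls were 104 with DESeq2 and 78 to 621 over the left-out libraries (621 without WT with CMC replicate 3). The causes were not tested.

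Of the related lists, DESeq2 called fewer genes for receptors and kinases (1 higher and 3 lower against 3 and 4 without CMC) and for sensors (2 higher against 4 without CMC, 3 against 6 with CMC). The 8 tested members had 11 to 92 counts per library, which limits the precision of their fold changes.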
